A study of Homo sapiens with 12 samples.

Results

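The 10 genes described here are subunits of the transcription factor NF-kB and genes that NF-kB itself induces, several of which act back on the pathway: RELA, NFKB1, NFKB2, RELB, NFKBIA, TNFAIP3, TNIP1, BIRC3, TRAF1 and ICAM1. They were selected by symbol from the 58051 genes of the count table, and each symbol matched 1 row, so that all 10 were found. The data are total RNA sequencing of MDA-MB-231, a triple-negative breast cancer cell line, after transfection of siRNA pools. There were 4 groups of 3 libraries each: siControl (a non-targeting scrambled pool), siNELFA (a pool against NELFA, a subunit of the negative elongation factor that holds RNA polymerase II shortly after initiation), siYAP (a pool against YAP1, which encodes the transcriptional co-activator YAP of the Hippo pathway) and siNELFA+siYAP (both pools together). The labels give 50 to 100 nM siRNA and name RNA extraction at 48 h and at 72 h, while the study's methods give 72 h for the sequenced RNA. All groups therefore carry a transfection, and no untransfected cells are among the 12 libraries analysed here.

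NF-kB is a family of dimers built from RELA, RELB, REL and the processed products of NFKB1 and NFKB2. In resting cells the dimers are kept in the cytoplasm by inhibitors of the IkB family, of which IkB-alpha, the product of NFKBIA, is degraded when the IKK kinases are activated by receptors for TNF or interleukin-1. Active NF-kB then switches on genes that shut the pathway down again, and MDA-MB-231 cells are known for NF-kB activity without added stimulus.

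Each library held between 9608145 and 18803104 counts, of which the 10 genes took 0.12% to 0.171%, and the lowest count of any of them was 276 (RELB in siControl replicate 1). The targeted genes were low in the groups named for them. In CPM, the gene's count scaled to the library's depth with TMM factors, NELFA was at 25.3, 27.7 and 28.1 in siControl and at 9.88, 9.12 and 7.13 CPM in siNELFA (adjusted p = 0.381 by edgeR without and 0.000385 with a block on the replicate number). YAP1 fell by 2.67 on the log2 scale in siYAP (edgeR quasi-likelihood test, adjusted p = 0.0162). All 6 basal markers of such cells (VIM, CD44, AXL, MSN, CAV1, EGFR) had counts in every library. Of the 7 luminal and epithelial markers, ESR1, PGR and FOXA1 stayed at or below 6 counts. ERBB2 (422 to 1474 counts), GATA3 (58 to 127) and EPCAM (60 to 197) had counts in every library. CDH1, which encodes E-cadherin, had 230, 599 and 169 counts in replicate 1 of siControl, siNELFA and siYAP and 0 to 17 counts in the other 9 libraries. Among 9 leukocyte markers, CD3E and MS4A1 had no count in any library and PTPRC at most 4. CD68 (822 to 3554 counts), CD14 (34 to 439) and CSF1R (36 to 221) had counts in every library.

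Replicate 1 stood apart in 3 groups. Over 12971 genes averaging at least 50 counts, deviations of same-numbered libraries from their group means correlated at 0.658 to 0.892 among siControl, siNELFA and siYAP, and at -0.0506 to 0.0311 between any of them and siNELFA+siYAP. Libraries of the first 3 groups are thus treated as pairs by number, and for siNELFA and siYAP against siControl the results of a fit blocked on that number stand beside those of the unblocked fit. The siNELFA+siYAP libraries are titled replicates 1 to 3 but carry names with a shared first number and an index of 1 to 3. Replicates 1 and 3 of that group differed by a chi-square of 2.84 per degree of freedom over 14563 genes, against 12.9 to 135 for every other pair of libraries within a group, and since their titles give them as separate replicates both were kept. The study's methods name independent biological replicates, but whether the siNELFA+siYAP libraries come from separate transfections was not tested. If they do not, the SD, standard errors and p-values of every comparison with that group measure technical spread on its side.

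Binding sites of NF-kB are known as kappaB sites, and the stretch before the start of transcription is shown for the genes in which a script found the kappaB consensus, since such sites are the known route by which NF-kB acts on its targets. RefSeq promoter windows of GRCh38.p14, each 250 bases before to 50 after the start, were found for 9 of the 10 genes, with RELB not matched. The consensus, searched on both strands, was present in 5 of the 9, and in 5.91% of 35116 windows of this length. A single window per gene was searched for exact matches, so a gene without a match can still have a site. NFKBIA (chr14:35401079-35404749, minus strand) has a match starting 81 bases before the start site and BIRC3 (chr11:102317484-102339403, plus strand) has matches at 199 and 135 bases before it. Their upstream windows, at chr14:35404750-35404999 (minus strand) and chr11:102317234-102317483 (plus strand), read as follows, with matches in capitals.

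NFKBIA: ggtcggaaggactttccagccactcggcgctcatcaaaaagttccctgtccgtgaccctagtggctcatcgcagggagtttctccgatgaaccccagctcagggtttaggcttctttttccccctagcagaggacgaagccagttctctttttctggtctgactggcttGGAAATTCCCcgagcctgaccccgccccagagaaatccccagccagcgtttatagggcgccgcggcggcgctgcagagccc

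BIRC3: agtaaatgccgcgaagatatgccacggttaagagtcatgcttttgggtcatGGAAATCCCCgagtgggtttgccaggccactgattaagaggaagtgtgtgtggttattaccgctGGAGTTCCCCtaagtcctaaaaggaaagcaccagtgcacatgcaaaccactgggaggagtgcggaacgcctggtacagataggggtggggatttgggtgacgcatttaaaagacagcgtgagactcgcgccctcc

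For NFKB2, TNFAIP3 and TNIP1 the 30 bases around each match are given, at chr10:102395519-102395548 and chr10:102395674-102395703 (plus strand), chr6:137867188-137867217 (plus strand) and chr5:151081057-151081086 (minus strand). The NFKB2 and TNIP1 matches lie before RefSeq starts that fall inside the longer gene spans of the GENCODE annotation, while the TNFAIP3 window ends at the first bases of its gene. Among the windows without a match, those of NFKB1 (chr4:102501684-102501933) and TRAF1 (chr9:120914584-120914833) also lie inside the gene span. The second NFKB2 match and the TNIP1 match have the same 10 letters.

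NFKB2 first site: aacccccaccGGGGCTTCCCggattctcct

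NFKB2 second site: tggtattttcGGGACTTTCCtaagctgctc

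TNFAIP3: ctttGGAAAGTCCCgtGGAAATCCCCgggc

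TNIP1: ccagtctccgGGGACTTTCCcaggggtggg

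The letters GGAATG, which the TEAD partners of YAP recognise, were found in 1 of the 9 windows (NFKB1, 45 bases before the start) and in 14% of all windows. The AP-1 letters TGANTCA were in none of the 9 and in 7.71% of all windows. These matches describe the letters of the windows only.

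In siControl the 10 genes covered a wide range of abundance. Levels are compared between genes only in TPM, the deposited measure in which each library is scaled to the same total and transcript length is accounted for. The deposited TPM values are not a mere rescaling of the deposited counts. NELFA had 351 and 354 counts in siYAP replicates 1 and 2 but 20.7 and 67.8 TPM. VCAM1, another NF-kB target, had 0 counts in siControl replicate 3 but 0.0522 TPM. Where CPM and TPM differ below, the cause was not tested. TNIP1, whose product binds A20 and helps it restrain signalling, was the most abundant at 215 ± 42.6 TPM (SD, n = 3 here and below). BIRC3 followed at 94.2 ± 61.5, NFKBIA at 93 ± 2.85 and ICAM1 at 88.8 ± 41.5 TPM, and these 3 neighbours lay within each other's spread. RELA at 60.1 ± 3.14 and NFKB2 at 53.9 ± 7.61 TPM were also closer than their spread. TNFAIP3 (27.2 ± 7.04) and NFKB1 (20.9 ± 1.98) came next, and RELB (15.1 ± 3.13) and TRAF1 (13.6 ± 0.524 TPM) were lowest. Within each of these last 2 pairs of neighbours the difference was smaller than the larger of their SDs. Among the 4 subunit genes RELA and NFKB2 were thus above NFKB1 and RELB.

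**Figure D1:**
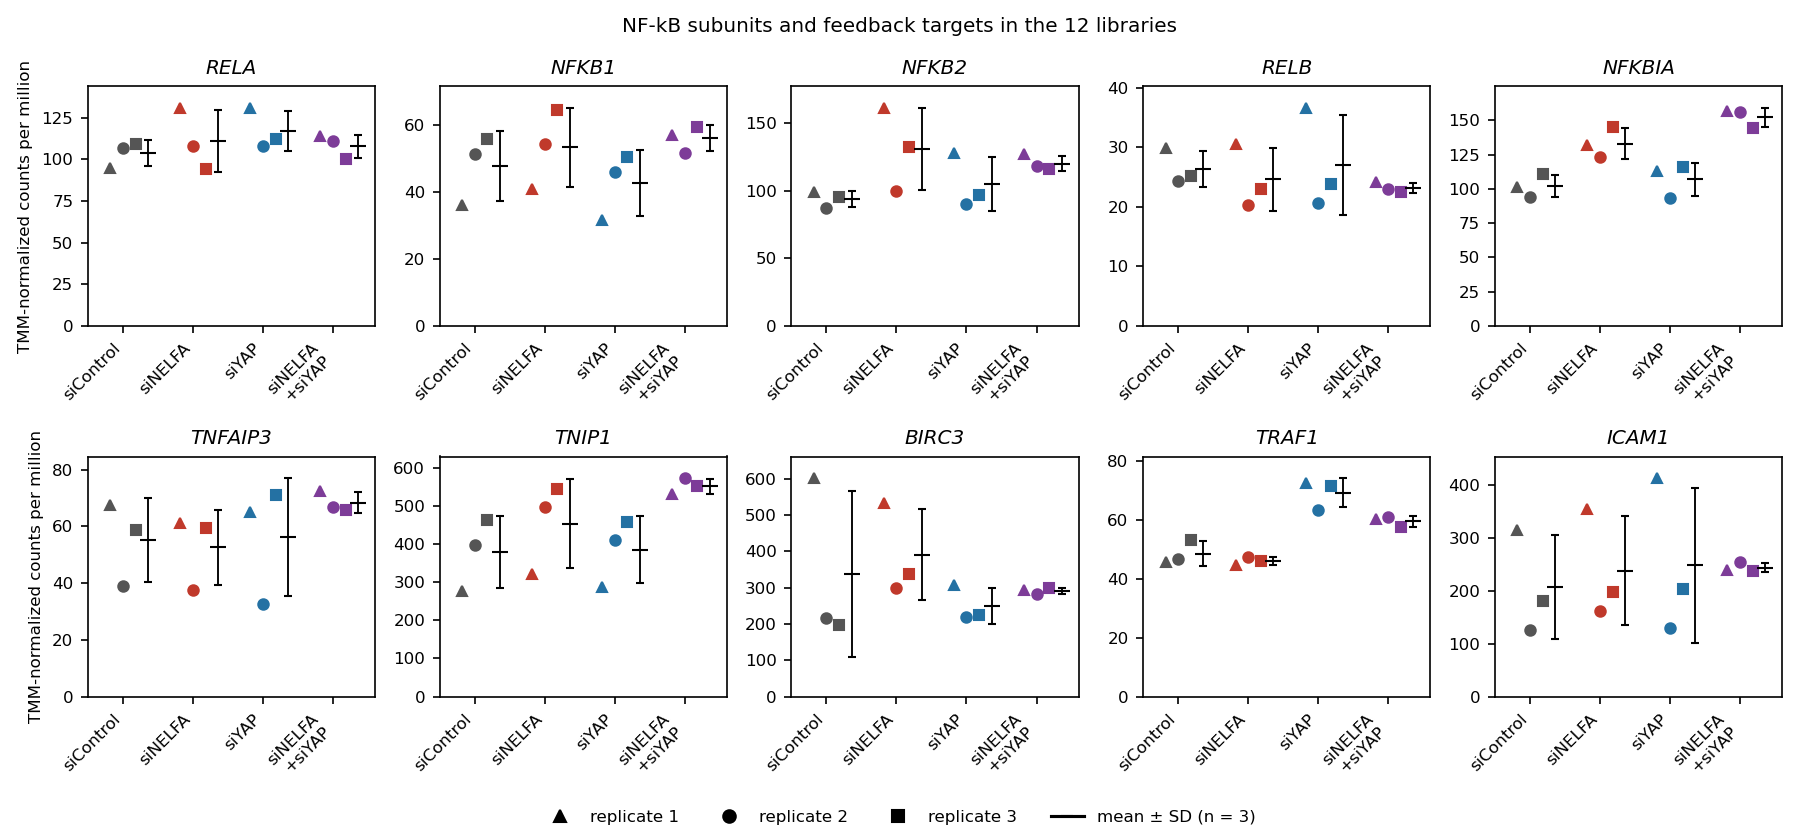
Level of each of the 10 genes in TMM-normalized CPM (y axis, from 0) in the 12 libraries, by siRNA group (x axis), with the replicate number as the symbol and the mean ± SD of 3 libraries as the bar. BIRC3 and ICAM1 are highest in replicate 1 of siControl, siNELFA and siYAP, NFKBIA is higher in both groups that received the NELFA siRNA than in siControl, and the siNELFA+siYAP libraries lie close together.

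The first question is what knockdown of NELFA did to these genes. In CPM, NFKBIA and NFKB2 in siNELFA were above all siControl libraries, and no gene of the 10 was below. NFKBIA, which encodes the inhibitor that returns NF-kB to the cytoplasm, was at 101, 94 and 111 CPM in replicates 1 to 3 of siControl and at 132, 123 and 145 CPM in siNELFA. The groups did not overlap, and the mean was 131% of siControl. NFKB2 (chr10:102394110-102402524), which encodes the p100 precursor of p52, was at 98.9, 87.2 and 95.6 CPM in siControl and 161, 100 and 132 CPM in siNELFA. Its lowest siNELFA library was only just above the highest siControl library. Groups did not overlap in the higher direction for 6.04% of the 17727 genes tested and in the lower direction for 6.08%.

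Without the block, none of the 10 passed an adjusted p of 0.05 in siNELFA (edgeR quasi-likelihood test, Benjamini-Hochberg), where 0.00564% of all genes did, and DESeq2 also called none, with 0.169% of all genes called. NFKBIA was the 1 gene with an unadjusted p under 0.05, against 4.46% of all genes. Its log2 fold change was 0.39 ± 0.16 (SE), and that of NFKB2 was 0.49 ± 0.21. With the replicate block the calls changed: NFKBIA (0.39 ± 0.10, adjusted p = 0.0385 by edgeR) and NFKB2 (0.46 ± 0.11, adjusted p = 0.0363 by edgeR) rose, 2 of 10 beside 5.21% of all genes called and 2.76% called as higher. DESeq2 with the block also called NFKBIA (adjusted p = 0.0197) and NFKB2 (0.0141), with 10.6% of all genes called. The 3 same-numbered differences of NFKBIA were 0.38, 0.38 and 0.39 on the log2 scale, and those of NFKB2 were 0.70, 0.20 and 0.46. Leaving out pair 2 ended the call of NFKBIA (0.25) with NFKB2 at an adjusted p of 0.0373 by edgeR and 3.56% of all genes called, and leaving out pair 3 ended both calls (lowest adjusted p = 0.108 by edgeR, with 3.65% of all genes called). On the deposited TPM values the fold changes were smaller, 0.15 for NFKBIA and 0.25 for NFKB2 on the log2(TPM + 1) scale, and none of the 10 was called by limma, with 0.0254% of all genes called. In TPM both genes overlapped siControl, NFKBIA at 95.2 to 118 in siNELFA against 91.2 to 96.3, and NFKB2 at 50.7 to 80.7 against 48 to 62.5.

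The other feedback genes were less even. TNIP1 (chr5:151029945-151093577) was at 277, 397 and 463 CPM in siControl and 321, 497 and 544 CPM in siNELFA, higher in 3 of 3 same-numbered pairs, with overlapping groups. BIRC3, which encodes the ubiquitin ligase cIAP2, was at 601, 215 and 198 CPM in siControl and 534, 300 and 338 CPM in siNELFA. Replicate 1 was far above the others in both groups and was lower in siNELFA, while replicates 2 and 3 were higher there. TNFAIP3 (chr6:137867214-137883314), which encodes the ubiquitin-editing brake A20, was at 67.7, 38.9 and 58.9 CPM against 61.3, 37.5 and 59.3 CPM, and each number gave nearly the same level in both groups. On deposited TPM it was lower in every pair, at 35.1, 21.4 and 25.2 TPM in siControl against 22.9, 14.2 and 20.7 TPM in siNELFA (-0.48 ± 0.27 on the log2(TPM + 1) scale, not called by limma). TNIP1 on TPM was at 215 ± 42.6 in siControl and 218 ± 63.9 in siNELFA, with a log2 fold change of -0.01. With the block BIRC3 had a log2 fold change of 0.37 ± 0.14, TNIP1 of 0.26 ± 0.09 and TNFAIP3 of -0.06 ± 0.12, none of them called (adjusted p = 0.159, 0.101 and 0.848 by edgeR).

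ICAM1, the adhesion molecule bound by leukocyte integrins, and the remaining subunits gave no call either. ICAM1 (chr19:10271093-10286615) was at 316, 125 and 180 CPM in siControl and 354, 162 and 197 CPM in siNELFA. RELA (chr11:65653599-65663090) was at 94.7, 107 and 109 against 131, 108 and 94.2 CPM, so that replicates 1 and 3 moved in opposite directions. On deposited TPM, RELA was below all siControl libraries, at 45.3 to 52.9 TPM in siNELFA against 56.6 to 62.7 TPM. NFKB1 (chr4:102501330-102617302), which encodes the p105 precursor of p50, was at 36.1, 51.4 and 55.8 against 41, 54.5 and 64.6 CPM. RELB (chr19:45001461-45038192), the partner of p52, was at 29.9, 24.3 and 25.1 against 30.6, 20.3 and 23 CPM. TRAF1 (chr9:120902393-120929173), a signalling adaptor that binds TRAF2, was at 45.7, 46.6 and 53.4 against 44.8, 47.5 and 46.2 CPM. On deposited TPM, TRAF1 too was below all siControl libraries, at 10.2 to 11.8 TPM in siNELFA against 13 to 14 TPM. Neither RELA nor TRAF1 was called by limma, and the share of all genes below siControl on TPM was not counted. Of the 10, NFKBIA, NFKB1, NFKB2, ICAM1 and TNIP1 were higher in all 3 pairs in CPM, and so were 21.7% of all genes, but on the log2(TPM + 1) scale NFKB1 (-0.26) and TNIP1 (-0.01) had the opposite sign. An unadjusted p under 0.05 with the block was found for 5 genes, NFKBIA, NFKB2, BIRC3, ICAM1 and TNIP1, all higher, against 10.5% of all genes.

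When pair 1 was left out of the blocked fit, 5 genes were called as higher, with 15.7% of all genes called in either direction. These were NFKBIA (0.40, adjusted p = 7.19e-05 by edgeR), NFKB2 (0.35, 0.00122), TNIP1 (0.29, 0.000571), BIRC3 (0.64, 1.65e-15) and ICAM1 (0.26, 0.0107). This fit rests on 2 pairs, and the spread of each gene is then estimated largely from the other genes. Without the block, leaving out replicate 1 of both groups called none of the 10 (lowest adjusted p = 0.074 by edgeR, with 0.0996% of all genes called and 4 of the 10 at an unadjusted p under 0.05).

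**Figure D2:**
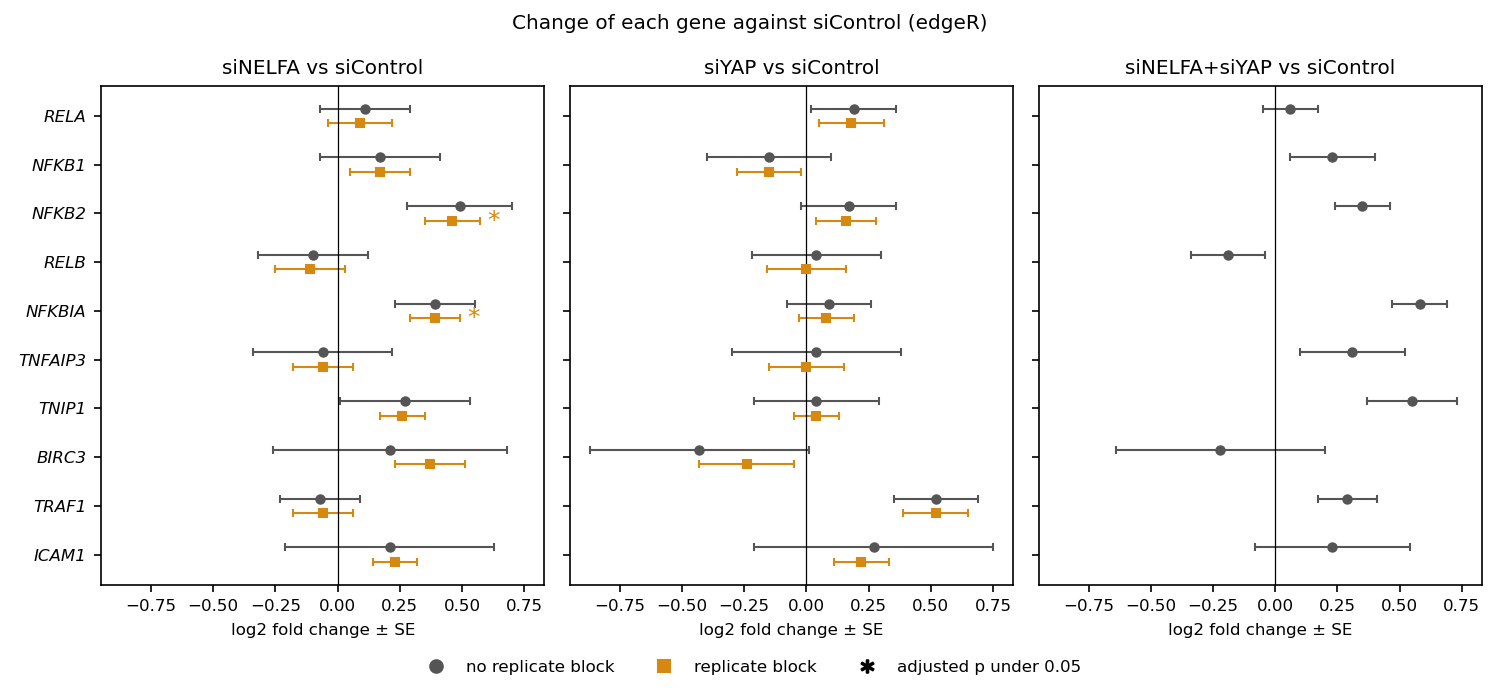
Log2 fold change (x axis) of each gene (y axis) against siControl in siNELFA, siYAP and siNELFA+siYAP, with the standard error as the bar, from edgeR without the replicate block (grey circles) and with it (orange squares, only where the replicate numbers pair the libraries). The 2 asterisks mark NFKBIA and NFKB2 in siNELFA with the block, the calls with an adjusted p under 0.05, and the bars of BIRC3 and ICAM1 are the widest without the block.

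The second comparison asks what knockdown of YAP did. TRAF1 was the gene that stood out in siYAP, at 72.6, 63.6 and 71.6 CPM against 45.7, 46.6 and 53.4 CPM in siControl. The groups did not overlap, as for 3.6% of the 17296 genes tested in that direction, and the mean was 143% of siControl. The log2 fold change of TRAF1 was 0.52 ± 0.17 without the block (adjusted p = 1 by edgeR) and 0.52 ± 0.13 with it (adjusted p = 0.483 by edgeR), and it was the gene of the 10 with an unadjusted p under 0.05, against 1.3% of all genes without the block and 9.11% with it, so that 1 of 10 with the block is near the share of all genes. No gene of the 10 was called, with 0.00578% of all genes called without the block and 0.0173% with it, and DESeq2 called none in either fit, with 0.0116% and 0.354% of all genes called. The same-numbered differences of TRAF1 were 0.66, 0.45 and 0.42 on the log2 scale. Without pair 1, the blocked fit called it (0.45, adjusted p = 0.00787 by edgeR, with 1.62% of all genes called).

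Among the subunits, siYAP libraries were at 131, 108 and 112 CPM for RELA, 31.6, 46.1 and 50.6 for NFKB1, 128, 90.1 and 97.1 for NFKB2 and 36.6, 20.7 and 23.8 for RELB. All 4 overlapped siControl. NFKB1 was lower in all 3 same-numbered pairs (-0.19, -0.16 and -0.14 on the log2 scale), as were 20.4% of all genes. NFKB2, RELA, ICAM1 and TRAF1 were higher in all 3 pairs, 4 of the 10 beside 16.7% of all genes. NFKBIA was at 113, 93.3 and 116 CPM, with a log2 fold change of 0.09 ± 0.17. TNFAIP3 was at 65.2, 32.6 and 71.1 CPM, TNIP1 at 287, 412 and 458 CPM and ICAM1 at 413, 129 and 203 CPM. None of these groups lay apart from siControl.

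BIRC3 was at 307, 218 and 224 CPM in siYAP, and its replicate 1 was far below that of siControl (601 CPM) while replicates 2 and 3 were close to theirs. Its log2 fold change was -0.43 ± 0.44, and the same-numbered differences were -0.97, 0.02 and 0.17. BIRC3 lies on chromosome 11 next to the gene targeted in this group: YAP1 ends 84.1 kb before BIRC3 starts, and BIRC2, its close relative, begins 7.81 kb beyond BIRC3. A link between this position and the BIRC3 values was not tested.

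With both siRNAs, 4 of the 10 genes were above all siControl libraries in CPM and 1 was below. NFKBIA was at 157, 156 and 144 CPM in siNELFA+siYAP, against at most 111 CPM in siControl, and its mean of 152 ± 7.03 CPM was 150% of that of siControl. TNIP1 was at 532, 573 and 552 CPM against 277 to 463 CPM. NFKB2 was at 127, 118 and 116 CPM against 87.2 to 98.9 CPM, and TRAF1 at 60.3, 60.9 and 57.5 CPM against 45.7 to 53.4 CPM. RELB was below at 24.1, 22.9 and 22.4 CPM, its highest library just under the lowest siControl library of 24.3 CPM. In CPM, groups did not overlap for 15.1% of the 17533 genes tested in the higher direction and for 14.6% in the lower direction. On deposited TPM, NFKBIA (119 to 133 against 91.2 to 96.3) and TNIP1 (274 to 296 against 167 to 248) were also above siControl. NFKB2 (60.4 to 67.7 against 48 to 62.5) and RELB (11.5 to 13.9 against 12.7 to 18.7 TPM) overlapped it, and TRAF1 (14 to 15.7 against 13 to 14) met it. RELA was below (53.6 to 56.2 against 56.6 to 62.7 TPM). The shares of all genes on TPM were not counted.

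No gene of the 10 passed the adjusted threshold in siNELFA+siYAP against siControl, where 0.428% of all genes did. The 4 genes above siControl in CPM had an unadjusted p under 0.05, all higher, against 8.27% of all genes. The log2 fold changes were 0.58 ± 0.11 for NFKBIA (adjusted p = 0.0756 by edgeR), 0.55 ± 0.18 for TNIP1 (0.18), 0.35 ± 0.11 for NFKB2 (0.176) and 0.29 ± 0.12 for TRAF1 (0.248). DESeq2 called NFKBIA (adjusted p = 8e-04), with 8.53% of all genes called. Because siControl is shared by these comparisons, the changes in the 3 knockdown groups are not independent of each other.

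Replicate 1 of siControl decided how many calls this comparison gave. Without that library 7 genes were called by edgeR, all higher, with 24.4% of all genes called in either direction. They were NFKBIA (0.58, adjusted p = 5.83e-05), NFKB2 (0.40, 0.000813), TNIP1 (0.37, 0.000502), TNFAIP3 (0.49, 0.0118), TRAF1 (0.26, 0.0417), ICAM1 (0.69, 0.000212) and BIRC3 (0.51, 2.12e-05). BIRC3 then changed the sign of its log2 fold change, which was -0.22 ± 0.42 with all libraries. Without replicate 1 in both groups 5 genes were called, NFKBIA, NFKB2, BIRC3, ICAM1 and TNIP1, with 17.9% of all genes called.

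The genes that did not stand apart in CPM in siNELFA+siYAP were close among its 3 libraries. BIRC3 was at 293, 282 and 299 CPM and ICAM1 at 240, 254 and 238 CPM, both inside the siControl range. TNFAIP3 was at 72.5, 66.8 and 65.8 CPM, NFKB1 at 57.2, 51.8 and 59.4 CPM and RELA at 114, 111 and 100 CPM. For BIRC3 the highest library was 1.06 times the lowest in siNELFA+siYAP and 3.03 times the lowest in siControl, and for ICAM1 these ratios were 1.07 and 2.53.

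The combined knockdown was also set against each knockdown alone. Against siYAP, NFKBIA, NFKB1 and TNIP1 were above all siYAP libraries in CPM and TRAF1 was below them, where 13.9% of the 17167 genes tested were above and 12.6% below. On deposited TPM, NFKB1 (20.6 to 21.1 against 12 to 24.5) and TRAF1 (14 to 15.7 against 15.5 to 20.1) overlapped siYAP. NFKBIA had a log2 fold change of 0.50 ± 0.12 (adjusted p = 0.17 by edgeR) and TNIP1 of 0.51 ± 0.17 (0.24), the 2 genes of the 10 with an unadjusted p under 0.05, against 15.5% of all genes. None was called by edgeR, with 0.035% of all genes called, and DESeq2 called NFKBIA (adjusted p = 0.0219, with 5.2% of all genes called). Without siYAP replicate 1, edgeR called 5 as higher, with 16.5% of all genes called in either direction. These 5 were NFKBIA (0.54, adjusted p = 0.00166 by edgeR), NFKB2 (0.36, 0.00725), BIRC3 (0.40, 0.00115), ICAM1 (0.56, 0.0129) and TNIP1 (0.35, 0.00306). Without replicate 1 in both groups the calls were NFKBIA, BIRC3 and TNIP1, with 7.7% of all genes called.

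Against siNELFA, TNFAIP3 and TRAF1 were above all siNELFA libraries and BIRC3 was below them, beside 7.18% and 7.89% of the 17463 genes tested. TRAF1 had a log2 fold change of 0.37 ± 0.11 (adjusted p = 0.735 by edgeR) and was the gene of the 10 with an unadjusted p under 0.05, against 6.62% of all genes. None of the 10 was called by edgeR or DESeq2, with 0.00573% of all genes called by edgeR and 0.299% by DESeq2. Without siNELFA replicate 1, ICAM1 was called (0.45, adjusted p = 0.0242 by edgeR, with 1.25% of all genes called). NFKBIA had a log2 fold change of 0.20 ± 0.11 here.

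Whether the NELFA siRNA acted differently with and without the YAP siRNA was tested as an interaction over all 12 libraries. None of the 10 genes was called or had an unadjusted p under 0.05, where 1.76% of all 18525 genes had the latter and 0 passed the adjusted threshold, with 0 also by DESeq2. The interaction of NFKBIA was 0.11 ± 0.18 and that of TRAF1 -0.16 ± 0.17 on the log2 scale. The largest standard errors were 0.62 for ICAM1 and 0.54 for BIRC3.

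Pooling the groups by siRNA, a contrast added after the values were seen, gave each siRNA 6 libraries with and 6 without it. With the NELFA siRNA, NFKBIA rose by 0.45 ± 0.09 on the log2 scale (adjusted p = 0.0354 by edgeR), the 1 called of 10 beside 1.7% of all genes. NFKB2 (0.34 ± 0.13) and TNIP1 (0.39 ± 0.17) had an unadjusted p under 0.05 without a call, against 15.3% of all genes. Without replicate 1 of every group NFKBIA, NFKB2, BIRC3 and TNIP1 were called, with 13.5% of all genes called. The call of NFKBIA was lost when any of 8 libraries was left out, namely siControl replicate 2, siNELFA replicates 1 and 3, siYAP replicates 2 and 3 and each siNELFA+siYAP replicate, with adjusted p between 0.0579 and 0.126 by edgeR. With the YAP siRNA, TRAF1 had a log2 fold change of 0.45 ± 0.08 and was not called by edgeR (adjusted p = 0.27, with 0.0162% of all genes called), while DESeq2 called it (adjusted p = 2.71e-05, with 0.432% of all genes called). In bulk RNA, fewer cells with a transcript and less transcript per cell cannot be told apart.

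The offset of replicate 1 differed from gene to gene among the 10. ICAM1 was higher in replicate 1 than in the mean of replicates 2 and 3 by 1.07 on the log2 scale in siControl, 0.99 in siNELFA and 1.35 in siYAP, and differed by -0.03 in siNELFA+siYAP. BIRC3 was offset by 1.54, 0.75 and 0.47 and RELB by 0.27, 0.49 and 0.71 in the first 3 groups. NFKB1 (-0.56, -0.53 and -0.60) and TNIP1 (-0.63, -0.70 and -0.60) were lower in replicate 1 of these groups. NFKBIA (-0.01, -0.02 and 0.11) and TRAF1 (-0.12, -0.06 and 0.10) had hardly any offset. An offset above 0.5 in all 3 groups was found upward in ICAM1, as in 11.4% of all 18525 genes, and downward in NFKB1 and TNIP1, as in 10.9%. The CDH1 counts given above were high in the same 3 libraries, and their part in these offsets was not tested.

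**Figure D3:**
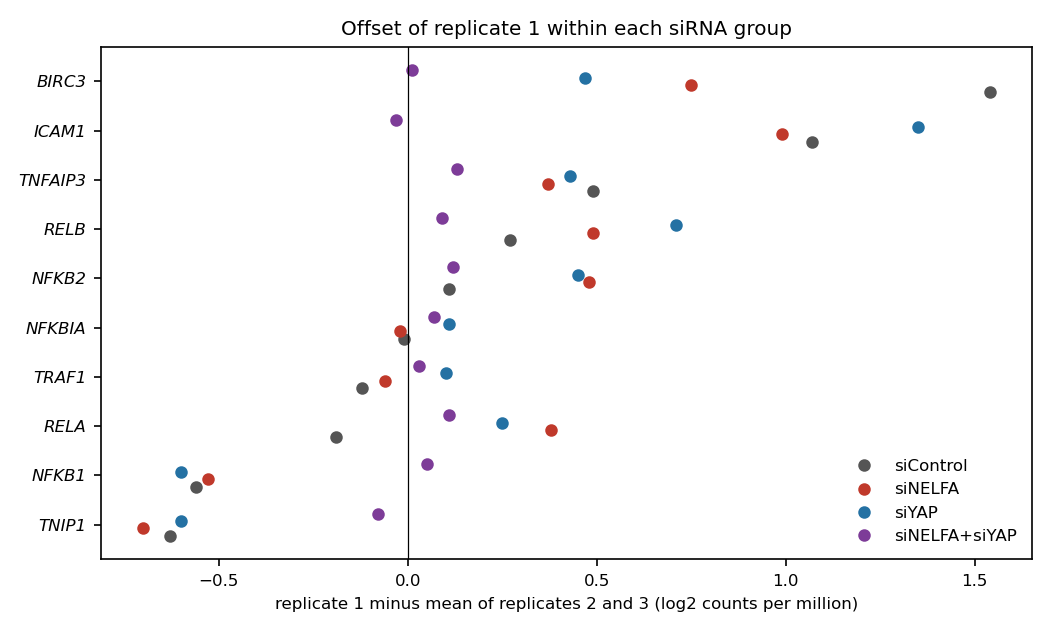
Replicate 1 minus the mean of replicates 2 and 3, in log2 CPM (x axis), for each gene (y axis) and siRNA group (colour). The points of siControl, siNELFA and siYAP lie above 0.9 for ICAM1 and below -0.5 for NFKB1 and TNIP1, while the siNELFA+siYAP points lie between -0.08 and 0.13 for all 10 genes.

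After subtraction of the group means, some of the 10 genes moved together over the 12 libraries and others in opposite directions. NFKB1 and TNIP1 followed each other (r = 0.957), as did RELB and ICAM1 (0.943) and NFKB2 and RELB (0.923). BIRC3 ran against TNIP1 (-0.867) and NFKB1 (-0.822). NFKBIA was close to 0 with all 3 of these (0.0414 to 0.103) and followed TNFAIP3 (0.848) and TRAF1 (0.701). These correlations describe libraries that share the replicate 1 offset. Over the 12 libraries without that subtraction, the genes most like NFKBIA among 12971 were CYB5R1 (r = 0.977), PLAU (0.975) and MAP1LC3B (0.964). Those most like TNFAIP3 were CAPRIN2 (0.92), DRAM1 (0.911) and MAOA (0.906), and those most like BIRC3 were APOL6 (0.976), SCFD1 (0.972) and SERP1 (0.972).

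The rest of the pathway was described from lists ordered by role. These lists were chosen with earlier results of these data known, so their shares of calls beside those of all genes are descriptive only. The list fits were not repeated with a pair left out or on TPM. In siNELFA with the block, other NF-kB targets, mostly chemokines, cytokines and survival genes, gave 12 calls of 26 genes tested, all higher, where 2.76% of all genes were called as higher, with a median log2 fold change of 0.54 beside 0.20 for the 10 genes and 0.01 for all genes. The 6 with the lowest adjusted p by edgeR were CXCL8 (1.49 ± 0.12, adjusted p = 4.88e-05), SDC4 (1.07 ± 0.09, 8.33e-05), IL6 (1.23 ± 0.14, 0.000659), CXCL1 (1.07 ± 0.12, 0.000684), PLAU (0.68 ± 0.09, 0.0022) and IER3 (0.66 ± 0.09, 0.00223). CXCL8 and CXCL1 encode neutrophil-attracting chemokines and IL6 encodes interleukin-6. Of 20 receptors and adaptors 4 were called as higher, beside the same 2.76%, namely TNFRSF1B (0.75 ± 0.12), IL1RAP (0.72 ± 0.13), LTBR (0.52 ± 0.13) and IRAK2 (0.41 ± 0.11). TNFRSF1B encodes a TNF receptor, IL1RAP the partner chain of the interleukin-1 receptor, and LTBR the lymphotoxin receptor that feeds the NFKB2 branch.

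Of 13 other brakes, 1 rose in siNELFA, ZC3H12A (0.75 ± 0.12, adjusted p = 0.00415 by edgeR with the block), which encodes a ribonuclease that degrades cytokine mRNA, and the list's median was 0.04. This 1 call of 13 stands beside 2.76% of all genes called as higher and 5.21% called in either direction in this fit, and 1 gene does not set the list apart. None of 13 kinases and ubiquitin ligases (median 0.12) and none of 6 other subunits and IkB proteins (median 0.23) was called, and no gene of any of these lists was called as lower. Without the block none of the lists had a call in siNELFA. In siYAP no gene of any list was called in either fit, and the list medians with the block lay between -0.07 and 0.14.

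In siNELFA+siYAP without the block, CCL20 (2.62 ± 0.22, adjusted p = 0.0199 by edgeR) and SDC4 (1.35 ± 0.11, 0.0199) rose among 25 other targets tested, where 0.12% of all genes were called as higher. This list's median was 0.73, beside 0.26 for the 10 genes and -0.03 for all genes. TNFRSF1B (0.89 ± 0.12, 0.0423) rose among the receptors and ZC3H12A (1.06 ± 0.15, 0.0431) among the brakes. None of the kinases, ubiquitin ligases, other subunits and IkB proteins was called. The summed leukocyte marker level was 87.5 to 88.6 TPM in siControl, 115 to 124 TPM in siNELFA, 105 to 124 TPM in siYAP and 135 to 164 TPM in siNELFA+siYAP. Of the 3 genes of that list tested, CD68 (0.63 ± 0.10, adjusted p = 0.00473 by edgeR) and CD14 (1.21 ± 0.23, 0.011) rose in siNELFA with the block. CSF1R was on the lower side there (-0.67 ± 0.21, adjusted p = 0.0904 by edgeR) and was not called. CD14 had 439, 100 and 64 counts in replicates 1 to 3 of siNELFA, against 104, 44 and 46 in siControl. In siNELFA+siYAP without the block CD68 rose (0.94 ± 0.11, adjusted p = 0.0317 by edgeR), while CD14 (-0.05 ± 0.64) and CSF1R (0.05 ± 0.33) were not called. CD68 gave the most counts of the list in each library (822 to 3554), with CD3E and MS4A1 at 0 and PTPRC at 0 in siControl and siNELFA+siYAP. The 4 luminal and epithelial markers tested were all on the lower side in siNELFA+siYAP, with none called and a median of -0.68. The lowest was CDH1 (-4.32 ± 1.72), at 230, 17 and 4 counts in siControl and 10, 4 and 4 in siNELFA+siYAP. The summed level of the luminal and epithelial list was 38.4 to 49.5 TPM in siControl and 23.3 to 28.9 TPM in siNELFA+siYAP. All 6 basal markers were on the higher side in this comparison, with none called and a median of 0.29. The part of these markers in the results was not tested.

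**Figure D4:**
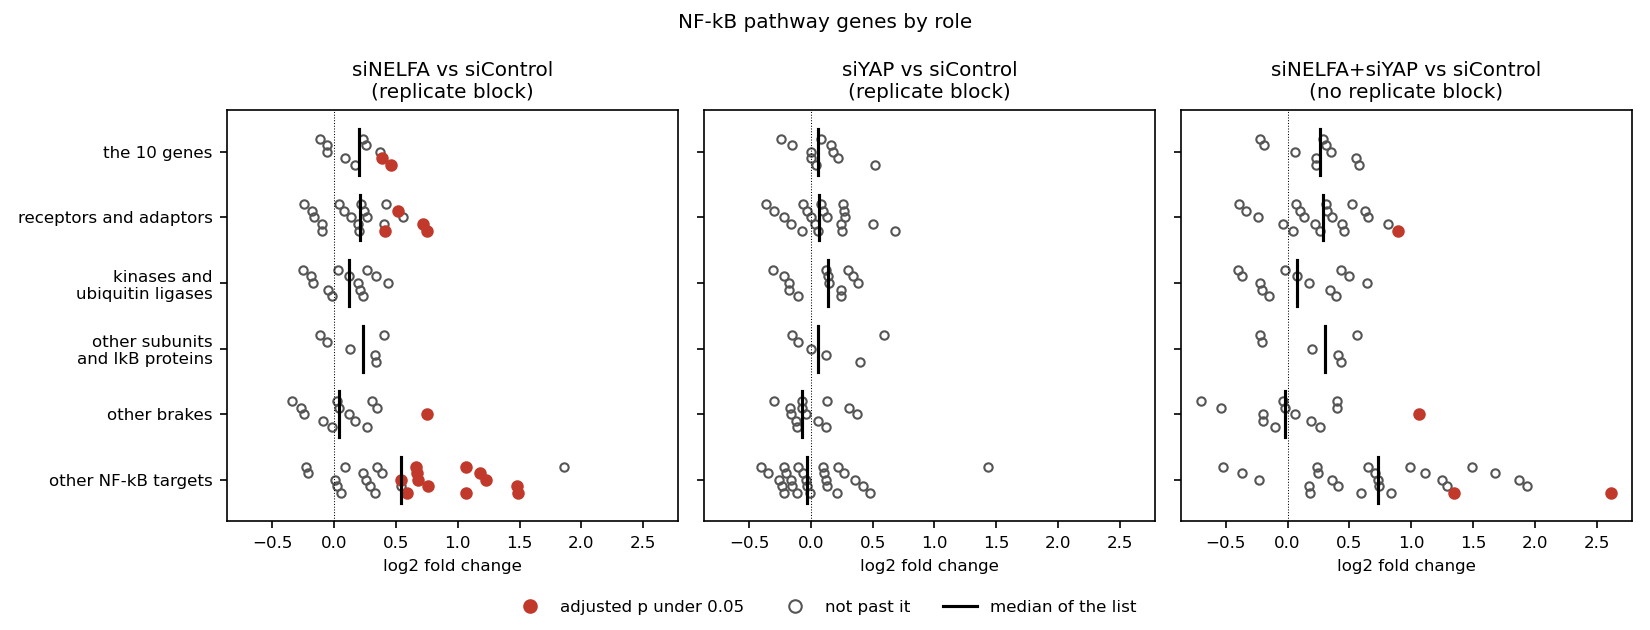
Log2 fold change against siControl (x axis) of the tested genes of each list (y axis) in siNELFA and siYAP with the replicate block and in siNELFA+siYAP without it, where filled red points have an adjusted p under 0.05 and the vertical bar is the list's median. From left to right the median of the other NF-kB targets is 0.54, -0.03 and 0.73, and that of the 10 genes is 0.20, 0.06 and 0.26.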

How the data were processed

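Total RNA was depleted of ribosomal RNA and made into stranded libraries by the authors, 3 per group. Reads were trimmed (cutadapt), aligned to GRCh38 with the Ensembl release 87 annotation (STAR) and assigned to genes (featureCounts), and the deposited counts were used as they stand. The versions and the strand setting of the counting are not given in the sources used here. Noncoding genes on the opposite strand overlap RELA, TNFAIP3, BIRC3, ICAM1 and TNIP1, and without strand in the counting their reads cannot be told apart. The deposited TPM values of the authors served for levels between genes and as an alternative, and an FPKM table was not used.

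The 10 genes, the lists and the naming rules were chosen with earlier results of these data known. All 10 genes passed the filter in every comparison. Counts were tested in R 4.3.3 with the quasi-likelihood test of edgeR 4.0.16 after TMM scaling and filterByExpr with its defaults, on the 6 libraries compared and without a block. The filter asked for a CPM matching 10 counts at the median depth in as many libraries as the smaller group holds, and 15 counts in all. Benjamini-Hochberg adjustment was over all genes tested, with a threshold of 0.05. The standard error is the log2 fold change divided by the square root of F. The scripts were tested on simulated data. Alternatives were DESeq2 1.42.0, RLE factors, no filter, all 12 libraries in the fit, the replicate block, leaving out replicate 1 of every group, limma 3.58.1 on log2(TPM + 1) and log2(TPM + 0.1) for genes at 1 TPM or more in at least 3 libraries, and leaving out each library. The contrasts by siRNA, and the block with DESeq2, RLE factors or a pair left out, were added after seeing the data. Same-numbered libraries of siControl, siNELFA and siYAP deviated together in every pair (r of at least 0.658), which is where the pairing comes from, and same-numbered differences are of log2(CPM + 0.5). From each list at most 6 called genes were named per comparison, those with the lowest adjusted p, and the 3 genes most like NFKBIA, TNFAIP3 and BIRC3 were taken by Pearson's r of log2(CPM + 1). Gene positions are those of the GENCODE annotation of GRCh38 and promoter windows those of RefSeq. Depth ranged from 9608145 to 18803104 counts per library. Figures were drawn with matplotlib 3.10.9.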

Additional observations from a re-analysis of the deposited data

How the results depend on the processing

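Of 1370 alternative values of the log2 fold changes of the 10 genes, 1243 stayed within 1 standard error of the reported value or kept their call, 75 moved further without a call, 41 became calls and 11 lost a call, and no called value changed sign, while 116 uncalled values did. The replicate block raised the number of called genes from 0 to 2 in siNELFA against siControl, with DESeq2 and with RLE factors too, and leaving out pairs 1, 2 and 3 under it gave 5, 1 and 0. It left 0 in siYAP against siControl, where leaving out pair 1 gave 1. For comparisons with siNELFA+siYAP the replicate numbers pair nothing, and the block gave 0 calls there, with 0 in the interaction and 2 (NFKBIA and TNIP1) in the contrast by NELFA siRNA. DESeq2 gave 1 call in siNELFA+siYAP against siControl, 1 against siYAP and 1 (TRAF1) in the contrast by YAP siRNA. Leaving out single libraries gave 0 to 7 calls in siNELFA+siYAP against siControl, 0 to 5 against siYAP and 0 to 1 against siNELFA, each time the most without replicate 1 of the other group. It gave 0 to 1 in the contrast by NELFA siRNA and 0 in the other comparisons. Without replicate 1 of every group the calls were 5, 3 and 0 in the same 3 comparisons and 4 in the contrast by NELFA siRNA, whose call was lost with no filter on low counts and with limma on TPM at either pseudocount, each giving 0. The cause of these changes was not tested. Over all genes, the calls in siNELFA against siControl numbered 1 without and 924 with the block, and those in siNELFA+siYAP against siControl 75 by edgeR, 1348 by DESeq2, 381 without a filter and 4531 without siControl replicate 1. The lowest count of any of the 10 genes in a library was 276.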
